A study of Mus musculus with 5 samples.

Results

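Genes of ribosome biogenesis were compared between mouse heart grafts that had been stored in the cold and grafts that had not. The list holds 54 genes with known roles in this process, drawn up when earlier results of these data were known. Of these genes, 53 were measured, and 50 of them had a higher mean signal in the stored grafts. Their median log2 fold change was 0.56, and the largest, for Nop58, was 0.88 (1.84-fold). The size of these differences leaned on 1 of the 2 unstored grafts, graft 2554, without which the median was 0.29. Across the arrays, 19938 genes had a probe set with a single gene symbol, and only Noc2l among the listed genes had none.

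The hearts came from C57BL/6 mice and were implanted in the abdomen of syngeneic recipients, bought at 8 weeks of age according to the methods, and the labels name no transgene or drug. In the I/R group (cold ischaemia followed by reperfusion, grafts 2553, 2555 and 2557, n = 3), the tissue label gives 18 h of cold ischaemia, and the protocol names University of Wisconsin solution at 4 °C. In the non-I/R group (grafts 2554 and 2556, n = 2), the tissue label says that this storage was left out, although the protocol field of these samples repeats the text on storage. The labels put harvest of all 5 grafts at 24 h after transplantation, whereas the text of the study speaks of a later day. Both groups went through surgery and reperfusion, so neither is an unoperated heart. RNA from heart graft tissue was hybridised to Affymetrix Mouse Gene ST arrays, 1 for each graft, and the deposited values are log2 signals. The methods do not say which part of each graft was taken. Nothing says more about how the animals relate, so the p-values reflect only how much these 5 samples vary, which may be technical.

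Ribosomes are built in the nucleolus. RNA polymerase I copies the ribosomal DNA into a long precursor, small nucleolar RNAs guide its chemical modification, and a large complex called the small subunit processome folds and cuts it. Pre-40S and pre-60S particles then mature separately and leave the nucleus. The transcription factor MYC is a known activator of many of these genes, and in heart muscle ribosome production is known to increase during hypertrophic growth. Each gene below is placed by its step in this line: transcription, modification, processing of the small subunit, late 40S maturation and 60S assembly.

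Differences are I/R minus non-I/R on the log2 scale, fitted by limma over 21789 probe sets with a single symbol. After adjustment for all of these, none had p under 0.05 (0.0% called). The smallest adjusted p among the genes of this group was 0.282. By the methods' t-test, 2 of all probe sets passed after adjustment and none of these genes did. At an unadjusted p under 0.05 by limma, 24 of the 53 genes (45.3%) were higher in I/R, against 7.64% of all probe sets, and none was lower, against 7.35% of all probe sets. By the methods' t-test, 6 of the 53 (11.3%) were higher at the same unadjusted level, against 4.72% of all probe sets. None reached a 2-fold difference with an unadjusted p under 0.05, which 0.496% of all probe sets did in the higher direction. Below, a gene is said to be called where its unadjusted p by limma was under 0.05.

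In 42 of the 53 genes (79.2%), every I/R graft lay above both non-I/R grafts, a pattern held by 15.8% of all probe sets. The reverse pattern, held by 16.2% of all probe sets, occurred in none. These shares, and those of called probe sets above, also stand beside the counts of each step and list below. Values were tied between grafts in 53.8% of all probe sets but in only 7 of the 53 genes. A tie can keep a probe set out of either pattern, so the shares of all probe sets are not fully comparable. The gap between the lowest I/R and the highest non-I/R signal in these 42 genes had a median of 0.18, ranged from 0.016 to 0.49, and exceeded 0.2 in 18 of them. The groups thus did not overlap in most of the genes, but the gap was often narrower than the range among the I/R grafts, whose median was 0.35. The median log2 fold change of all probe sets was -0.0079, and 45.6% of them had a higher mean in I/R.

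**Figure D1:**
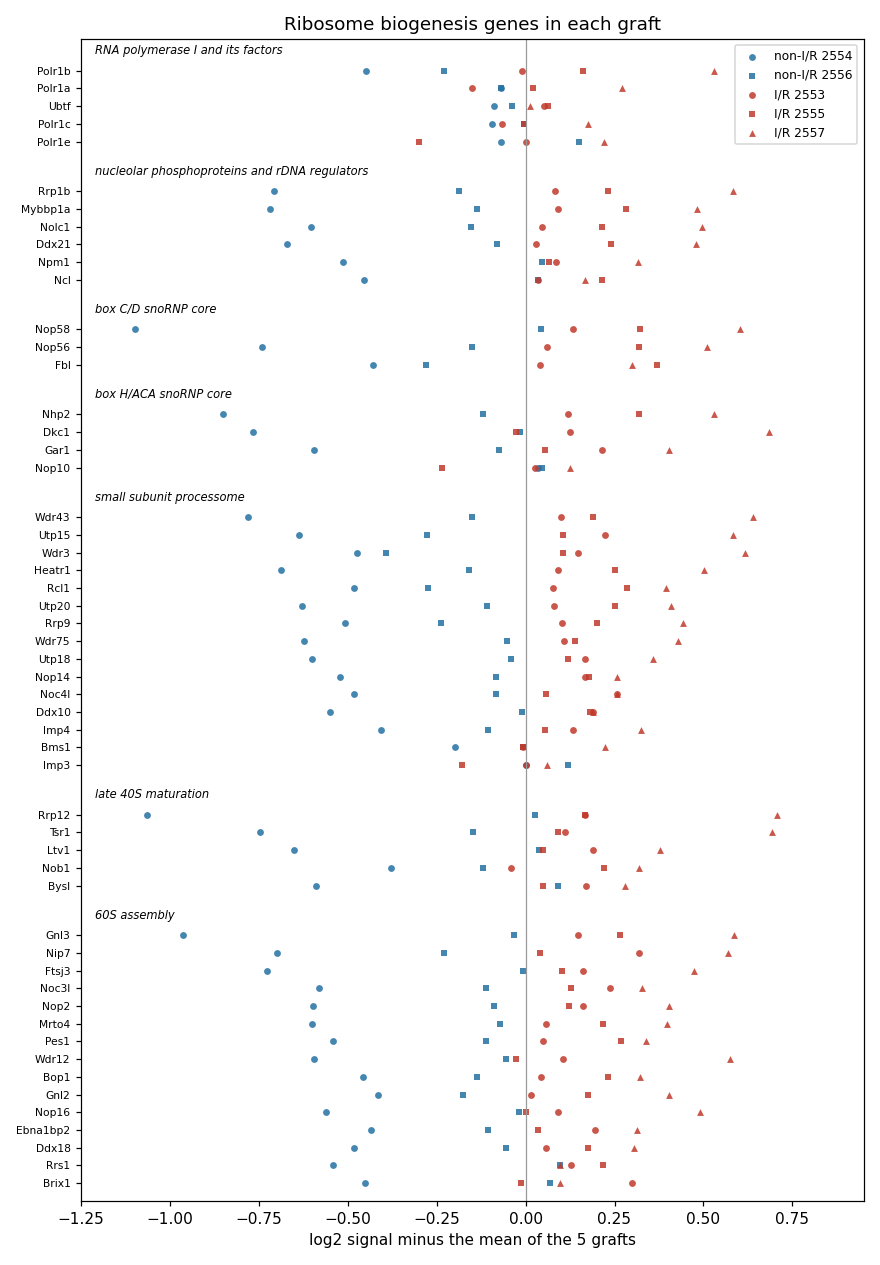
Log2 signal of each of the 53 measured genes in each graft, minus the mean of that gene over the 5 grafts, grouped by step of ribosome assembly; blue points are non-I/R and red points are I/R grafts. Graft 2554 is lowest in 49 genes and graft 2557 highest in 46.

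The lowest and the highest graft were the same in most genes. Graft 2554 was the lowest in 49 of the 53 genes, against 21.2% of all probe sets, and I/R graft 2557 was the highest in 46, against 19.0% of all probe sets. Ties can lower these shares of all probe sets too. In 46 genes the signal in 2554 was below that in 2556, and that in 2556 below that in I/R 2553. I/R 2555 lay above I/R 2553 in only 28 genes, so these grafts had no fixed order. The mean log2 signal over the genes was 8.93 in 2554 and 9.39 in 2556 for non-I/R, and 9.57, 9.60 and 9.86 in I/R 2553, 2555 and 2557. The 2 non-I/R grafts were thus farther apart than 2556 was from the nearest I/R graft. The difference between 2556 and 2554 had a median of 0.51 over the genes, against 0.0 over all probe sets, and in 18 genes it was larger than the difference between the groups.

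Without graft 2554, 50 of the 53 genes still had a higher mean in I/R than the signal in 2556, but only 2 were called, Nop14 and Ddx10, against 4.65% of all probe sets. That fit has a single non-I/R graft and takes its spread from the I/R grafts. Nop14 was the only gene called both with and without 2554. Among the 24 called genes, 13 were at least 1.5-fold higher with all grafts. Of all 53, 21 were at least 1.5-fold higher, against 3.27% of all probe sets.

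**Figure D2:**
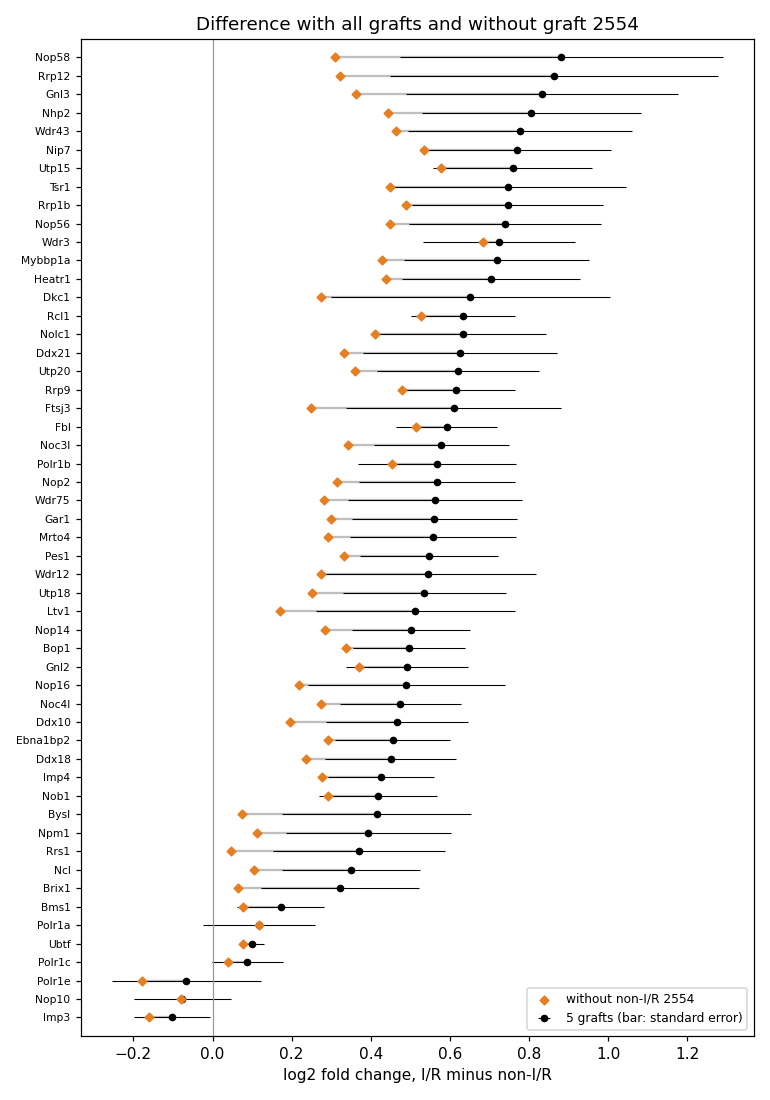
Log2 fold change (I/R minus non-I/R) of each measured gene with all 5 grafts (black points, bars are limma standard errors) and without non-I/R graft 2554 (orange diamonds). Points move toward 0 for most genes when 2554 is left out, the median going from 0.56 to 0.29. Wdr3, Utp15, Nip7, Rcl1 and Fbl stay above 0.5.

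RNA polymerase I itself differed little. Of its 5 genes here, 2 were called, the median log2 fold change was 0.10, and it was 0.08 without graft 2554 and 0.02 without graft 2557. Polr1b, the second-largest catalytic subunit, had log2 signals of 9.22 and 9.44 in non-I/R 2554 and 2556, against 9.66, 9.83 and 10.20 in I/R 2553, 2555 and 2557. All 3 I/R grafts were higher, with a log2 fold change of 0.57 (SE 0.20, limma adjusted p = 0.333), or 0.45 without 2554. Ubtf encodes the factor that binds the ribosomal DNA promoter and opens its chromatin. Its signals were 10.05 and 10.10 in non-I/R and 10.19, 10.20 and 10.15 in I/R, in the same graft order. The groups were separate, but the log2 fold change was only 0.10 (SE 0.030, adjusted p = 0.2995). This call was lost with an intensity trend, with each of the 3 other normalizations, without dim or tied probe sets, and without graft 2553, 2554 or 2555.

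The other subunits overlapped between groups. Polr1c, which RNA polymerase I shares with RNA polymerase III, read 9.80 and 9.89 in non-I/R and 9.83, 9.89 and 10.07 in I/R, a difference of 0.09 (SE 0.09, adjusted p = 0.618). For the largest subunit, Polr1a, the difference was 0.12 (SE 0.14). Polr1e, the subunit that helps the enzyme engage its initiation factors, was 1 of 3 genes with a lower mean in I/R. Its signals were 8.86 and 9.08 in non-I/R and 8.93, 8.63 and 9.15 in I/R, with a difference of -0.07 (SE 0.19, adjusted p = 0.864). Graft 2557 was highest and graft 2555 lowest, so this small difference lay inside the spread of the I/R grafts.

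Among 6 nucleolar phosphoproteins and regulators of ribosomal DNA, all had higher means in I/R, 3 were called and 5 had separate groups. Rrp1b, a nucleolar protein that associates with chromatin, had signals of 7.58 and 8.10 in non-I/R 2554 and 2556 against 8.37, 8.52 and 8.87 in I/R 2553, 2555 and 2557. The log2 fold change was 0.75 (SE 0.24, limma adjusted p = 0.315), or 0.49 without 2554. Mybbp1a, which binds MYB and takes part in precursor processing, had 9.53 and 10.11 against 10.34, 10.53 and 10.73, a difference of 0.72 (SE 0.23, adjusted p = 0.315). Nolc1, a chaperone that escorts small nucleolar ribonucleoproteins, had 8.64 and 9.09 against 9.29, 9.46 and 9.74, a difference of 0.63 (SE 0.21, adjusted p = 0.32). All 3 genes showed the same ladder, from 2554 to 2556 and then from 2553 through 2555 to 2557.

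The abundant proteins Ncl and Npm1 differed less. Nucleolin, encoded by Ncl, organises nucleolar chromatin and binds the precursor RNA, and its signals were 11.26 and 11.75 in non-I/R and 11.75, 11.93 and 11.88 in I/R. I/R 2553 and non-I/R 2556 had the same value, so the groups touched, and the log2 fold change of 0.35 (SE 0.17, adjusted p = 0.438) was 0.11 without 2554. Nucleophosmin, encoded by Npm1, is a histone chaperone of the granular zone of the nucleolus. It had 10.43 and 10.99 against 11.03, 11.01 and 11.26, a difference of 0.39 (SE 0.21, adjusted p = 0.457) that was also 0.11 without 2554. Other probe sets carry the symbol of Npm1 together with that of Gm15484 and were not used, so signal shared with that sequence is possible for Npm1. The RNA helicase Ddx21 differed by 0.63 (SE 0.25) and was not called.

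The core proteins of box C/D small nucleolar ribonucleoproteins, which methylate ribose in ribosomal RNA, had the highest median of the groups, 0.74 over 3 genes, and 0.45 without 2554. Fbl encodes fibrillarin, the methyltransferase, and read 9.29 and 9.44 in non-I/R 2554 and 2556 and 9.76, 10.09 and 10.02 in I/R 2553, 2555 and 2557 (probe set 10447589). The groups were separate by 0.32, and the log2 fold change of 0.59 (SE 0.13, limma adjusted p = 0.284) was 0.51 without 2554. A second, dimmer probe set for Fbl gave 0.36 (SE 0.075, adjusted p = 0.282). Probe set numbers of the genes with 1 probe set run in chromosome order. Fbl lies on chromosome 7, but the number of its brighter probe set falls among those of chromosome 17. That of the dimmer one falls between those of chromosomes 6 and 8. The brighter values may thus come from a related copy of the gene, which was not tested. Nop56, a scaffold of the same particle, had 10.08 and 10.67 against 10.88, 11.14 and 11.33, a difference of 0.74 (SE 0.24, adjusted p = 0.318). Its partner Nop58 had 8.38 and 9.52 against 9.61, 9.80 and 10.08. That is the largest difference of all 53 genes, 0.88 (SE 0.41, adjusted p = 0.42), but it was not called, since the non-I/R grafts were 1.14 apart and the value without 2554 was 0.31.

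Box H/ACA particles convert uridine to pseudouridine and also belong to telomerase. Of their 4 core genes, 3 had higher means in I/R and 1 was called (25.0%, against 7.64% of all probe sets). Nhp2, an RNA-binding core protein, had 8.02 and 8.75 in non-I/R 2554 and 2556 and 8.99, 9.19 and 9.40 in I/R 2553, 2555 and 2557. The groups were separate, with a log2 fold change of 0.81 (SE 0.28, limma adjusted p = 0.327), or 0.44 without 2554. Gar1 had 8.66 and 9.18 against 9.47, 9.31 and 9.66, a difference of 0.56 (SE 0.21, adjusted p = 0.345), also with separate groups.

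Dkc1 encodes dyskerin, the pseudouridine synthase, and had 8.72 and 9.47 in non-I/R against 9.61, 9.46 and 10.17 in I/R. I/R 2555 lay just below non-I/R 2556, so the groups overlapped in spite of a difference of 0.65 (SE 0.35, adjusted p = 0.464). Nop10, the smallest core protein, was flat, with 10.96 and 10.97 against 10.95, 10.69 and 11.05, and a difference of -0.08 (SE 0.12, adjusted p = 0.743). Only graft 2555 stood below the others for Nop10, and without it the difference was 0.027.

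The small subunit processome, with 15 genes, held the most called genes, 9, and 14 of its genes had higher means in I/R. Rcl1, a factor of the early cuts in the precursor, had the smallest unadjusted p of all 53 genes. It had 8.21 and 8.42 in non-I/R 2554 and 2556 and 8.77, 8.98 and 9.09 in I/R 2553, 2555 and 2557 (probe set 10462346). The log2 fold change was 0.63 (SE 0.13, limma adjusted p = 0.282), and it was 0.53 without 2554. Rrp9, which binds the U3 small nucleolar RNA, had 8.41 and 8.68 against 9.02, 9.12 and 9.36, a difference of 0.62 (SE 0.15, adjusted p = 0.286), or 0.48 without 2554. Both genes had gaps of over 0.3 between the groups, about as wide as or wider than the spread within either group.

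Wdr3, a scaffold of the processome, had non-I/R grafts that lay close together and the widest gap between the groups of all 53 genes. It had 8.02 and 8.10 in non-I/R and 8.64, 8.60 and 9.11 in I/R (probe set 10500582), with a gap of 0.49. The log2 fold change was 0.72 (SE 0.19, adjusted p = 0.29), and leaving out graft 2554 gave 0.68. Leaving out any 1 graft kept it between 0.56 and 0.82. The other called genes of the processome were Utp15, Nop14, Imp4, Heatr1, Noc4l and Utp20, with log2 fold changes from 0.43 for Imp4 to 0.76 for Utp15. Nop14 and Ddx10, the only genes called without 2554, had log2 fold changes of only 0.28 and 0.20 in that fit. Their 3 I/R grafts lay very close, at 9.39, 9.40 and 9.48 for Nop14 and at 9.22, 9.21 and 9.22 for Ddx10.

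Wdr43, Ddx10, Utp18 and Wdr75 had separate groups and were not called with all grafts, with log2 fold changes from 0.47 for Ddx10 to 0.78 for Wdr43. Bms1, the GTPase of the processome, differed by 0.17 (SE 0.11), and its groups touched. Imp3, which binds the U3 RNA together with Imp4, had the most negative value of the 53 genes. It had 10.66 and 10.78 in non-I/R against 10.66, 10.48 and 10.72 in I/R, a difference of -0.10 (SE 0.096, adjusted p = 0.586), and the groups overlapped. Imp4, which works in 1 complex with Imp3, had a difference of 0.43 (SE 0.13). That of Imp3 was about the size of its standard error, so its direction is uncertain, and neither gene passed adjustment.

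**Figure D3:**
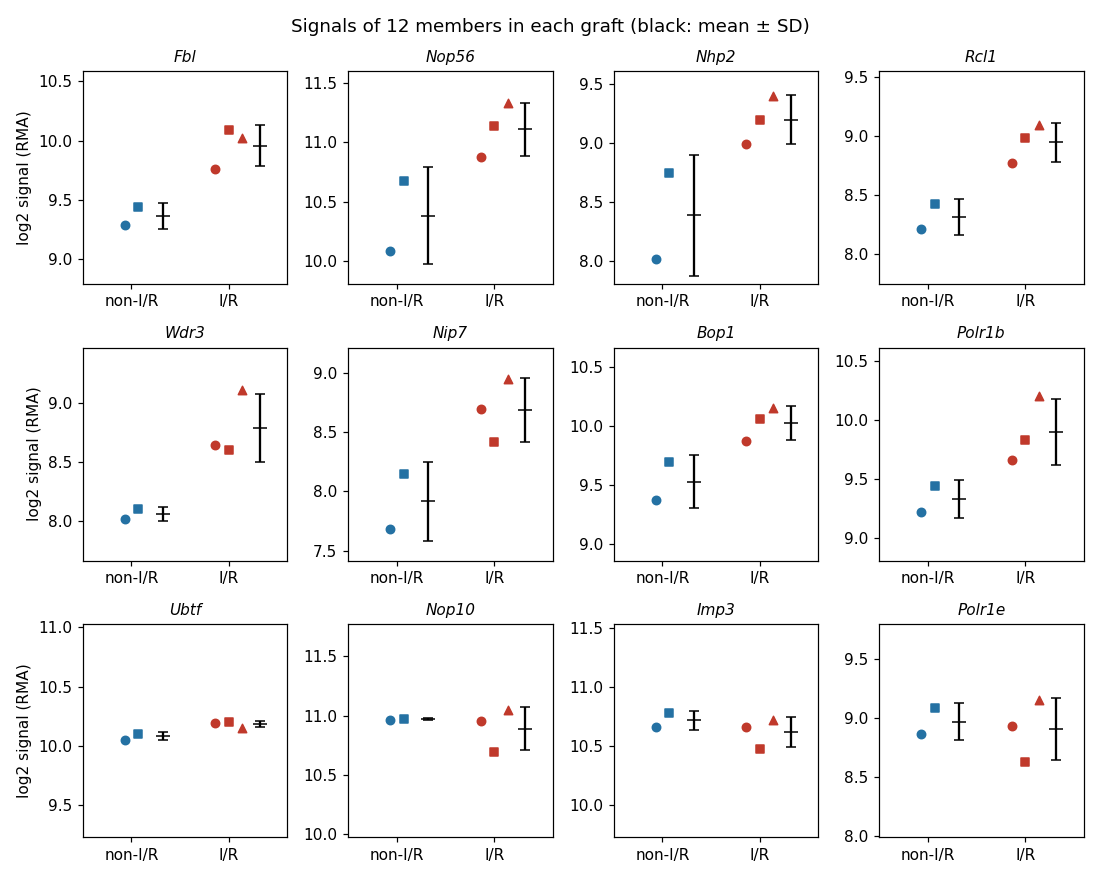
Log2 RMA signals of 12 genes in each graft, with the mean and SD of each group in black; blue points are non-I/R grafts 2554 (circle) and 2556 (square), and red points are I/R grafts 2553 (circle), 2555 (square) and 2557 (triangle). Each panel spans the same range of log2 units. Fbl is shown by its brighter probe set, which may read a related copy. Fbl, Rcl1 and Wdr3 have separate groups with close non-I/R grafts, Nop56 and Nhp2 have non-I/R grafts far apart, and Nop10, Imp3 and Polr1e overlap.

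None of the 5 genes of late 40S maturation was called, although all had higher means in I/R and 4 had separate groups. Over all probe sets, 7.64% were called higher and 15.8% had separate groups in this direction. Nob1, the endonuclease that makes the final cut in the small subunit RNA, had 8.98 and 9.24 in non-I/R 2554 and 2556 and 9.32, 9.58 and 9.68 in I/R 2553, 2555 and 2557. The log2 fold change was 0.42 (SE 0.15, limma adjusted p = 0.335). Tsr1, a GTPase-like factor on pre-40S particles, had 8.59 and 9.19 against 9.45, 9.43 and 10.03, a difference of 0.75 (SE 0.30, adjusted p = 0.368). Rrp12, needed for export of the particles, had 8.47 and 9.56 against 9.70, 9.70 and 10.24, a difference of 0.86 (SE 0.41, adjusted p = 0.429). Its standard error was large because the non-I/R grafts were far apart, and without 2554 the difference was 0.32. Ltv1 and Bysl had log2 fold changes of 0.51 and 0.42.

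All 15 measured genes of 60S assembly had higher means in I/R, with 7 called and 13 with separate groups. The last 2 counts are 46.7% and 86.7%, against 7.64% and 15.8% of all probe sets. Bop1 and its partners Pes1 and Wdr12 form the complex that processes the large subunit precursor. Bop1 had 9.37 and 9.69 in non-I/R 2554 and 2556 and 9.87, 10.06 and 10.15 in I/R 2553, 2555 and 2557, a log2 fold change of 0.50 (SE 0.14, limma adjusted p = 0.296). Pes1 and Wdr12 had 0.55 (SE 0.17) and 0.54 (SE 0.27), and of these Pes1 was called. A dimmer probe set for Wdr12 gave 0.56 (SE 0.20) with an unadjusted p under 0.05, so that the 2 probe sets had like differences but not the same call.

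Noc3l, which accompanies the pre-60S particle out of the nucleolus, had 8.49 and 8.96 in non-I/R against 9.31, 9.20 and 9.40 in I/R, a difference of 0.58 (SE 0.17, adjusted p = 0.2995). Nip7 had 7.68 and 8.15 against 8.70, 8.42 and 8.95, a difference of 0.77 (SE 0.24, adjusted p = 0.306), and 0.53 without 2554. The I/R grafts were higher for both genes, and here 2553 lay above 2555. The other called genes were the GTPase Gnl2 (0.49), Ebna1bp2 (0.46) and the RNA methyltransferase Nop2 (0.57). Gnl3, which encodes nucleostemin, had 0.83 (SE 0.34), the third-largest difference of the 53 genes, and was not called. Rrs1 and Brix1, with 0.37 and 0.32, were the 2 genes of this group whose groups overlapped or touched, and without 2554 they differed by 0.05 and 0.06. For Ddx18 and Mrto4, a second probe set gave 0.18 and 0.54 beside 0.45 and 0.56. Those second probe sets had an unadjusted p under 0.05 and the brighter ones did not. Wdr12 and Ddx18 lie on chromosome 1, but the numbers of their brighter probe sets fall among or after those of chromosome 6. Their dimmer probe sets fall with chromosome 1. For Mrto4 the brighter probe set falls with its own chromosome 4, and the dimmer one falls between those of chromosomes 11 and 13. The brighter values of Wdr12 and Ddx18 may thus come from related copies, which was not tested.

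The promoters of the genes were examined for the E-box letters CACGTG, which MYC with its partner MAX is known to bind and which read the same on both strands. RefSeq windows of 300 bases (build GRCm38.p6, 250 before the start of the gene and 50 after) were found for 48 of the 54 listed genes. The E-box stood in 9 of them (18.8%), against 8.09% of 27025 genes with a window and 9.57% of 15012 protein-coding genes on the arrays. The 3 whose E-box lies upstream of the start are shown as examples, written 5′ to 3′ on the strand of the gene with the E-box in capitals.
Imp4: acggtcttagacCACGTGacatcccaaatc
Nop2: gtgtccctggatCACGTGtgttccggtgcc
Utp18: gcgagcgccggtCACGTGgcttgcggcggc
They lie at chr1:34439696-34439725 on the plus strand, chr6:125131811-125131840 on the plus strand and chr11:93885769-93885798 on the minus strand, all in the 5′ flank of the gene. The first base of the E-box is 121, 60 and 20 bases upstream of the start of Imp4, Nop2 and Utp18.

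In the other 6 genes, Ltv1, Mybbp1a, Pes1, Tsr1, Utp20 and Wdr43, the E-box lies within 50 bases after the start. The 9 genes had log2 fold changes from 0.43 to 0.78, with a median of 0.57, and 5 were called. The 38 measured genes with a window and no E-box had a median of 0.56, ranged from -0.10 to 0.88, and 16 were called. The medians were 0.33 and 0.29 without 2554, so genes with and without these letters differed little. The GC-box letters GGGCGG, searched on both strands, stood in 36 of the 48 windows (75.0%), against 38.2% of all windows and 53.7% of those of protein-coding genes on the arrays. The 2 motifs can overlap by 1 base. A match to these letters does not show that a factor was bound in these grafts, and no match says only that the letters are not in this window.

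The signal of Myc itself was 9.49 and 10.08 in non-I/R 2554 and 2556 and 10.94, 11.39 and 11.25 in I/R 2553, 2555 and 2557. All I/R grafts were higher by more than the spread within either group, with a log2 fold change of 1.40 (SE 0.25, limma adjusted p = 0.282), and of 1.11 without 2554. Unlike most of the ribosome genes, Myc was highest in 2555 and not in 2557. Of the 13 genes of the MYC and MAX network, Myc was the only one called, and the median was 0.03. The obligate partner Max had 0.13 (SE 0.16) and the antagonists Mxd1, Mxi1 and Mnt had 0.69 (SE 0.29), -0.14 (SE 0.077) and 0.03 (SE 0.027), none of them called.

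A wider set of 138 measured genes of ribosome assembly outside the list showed smaller differences of the same sign. In this set 127 had higher means in I/R, and the median log2 fold change was 0.31, or 0.18 without 2554. Of the 138, 46 (33.3%) were called higher and 2 (1.45%) lower, against 7.64% and 7.35% of all probe sets. Every I/R graft lay above both non-I/R grafts in 86 of them (62.3%), against 15.8% of all probe sets. Graft 2554 was lowest in 112 (81.2%, against 21.2%) and graft 2557 highest in 89 (64.5%, against 19.0%). These were the same lowest and highest grafts as for the 53 genes.

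By step, the other genes of 60S assembly had the highest median, 0.42 over 47 genes, with 18 called higher. Eif6 keeps the new 60S subunit from joining the 40S subunit, and it was the only gene of the wider set at 2-fold with an unadjusted p under 0.05. Its signals were 10.37 and 10.98 in non-I/R 2554 and 2556 and 11.54, 11.91 and 11.78 in I/R 2553, 2555 and 2557. The groups were well apart, with a log2 fold change of 1.07 (SE 0.24, limma adjusted p = 0.284), or 0.76 without 2554. Eif6 was named after its values were seen. Surf6 had the smallest unadjusted p of the step, with a small difference of 0.23 (SE 0.023, adjusted p = 0.282), followed by Sbds, which helps to release Eif6 from the subunit, with 0.44 (SE 0.087, adjusted p = 0.282). Gnl3l was the lowest, with -0.12 (SE 0.20).

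Of 35 other genes of the small subunit processome, 9 were called higher and none lower, with a median of 0.31. Kri1 and Ddx49 had 0.43 (SE 0.080) and 0.28 (SE 0.074), and the lowest, Nol7, had -0.08 (SE 0.17). Of 6 genes listed as other late 40S genes, 3 were called. Rrp8, among those called, is a methyltransferase of large subunit RNA, so its place in this list is doubtful. Rrp8 and the kinase Riok3 had 0.70 (SE 0.15) and 0.72 (SE 0.19), and the lowest, Riok2, had 0.18 (SE 0.21) and -0.04 without 2554. The other 10 genes of RNA polymerase I had a median of 0.18 with 2 called, Cd3eap (Polr1g) with 0.33 (SE 0.10) and Taf1d with 0.52 (SE 0.17), and the lowest was Taf1a with -0.06 (SE 0.15).

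Factors that assemble small nucleolar ribonucleoproteins were mixed. Of 9, 4 were called higher and 1 lower. Naf1 and Shq1, both assembly factors for box H/ACA particles, differed by 0.55 (SE 0.080) and 0.50 (SE 0.098). Naf1 had 7.63 and 7.42 in non-I/R and 8.10, 8.02 and 8.12 in I/R, so here 2554 lay above 2556 and the difference without it was larger, 0.66. Pih1d1, a cofactor of box C/D assembly, was called lower with -0.18 (SE 0.053). Of 13 subunits and cofactors of the RNA exosome, which trims precursor ends, 4 were called higher, among them the nuclease Dis3 with 0.51 (SE 0.15) and Exosc5 with 0.08 (SE 0.025), and the lowest was C1d with -0.09 (SE 0.10).

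RNA polymerase III, which makes the 5S ribosomal RNA and transfer RNAs, had 6 of 18 genes called higher and 1 lower, with a median of 0.18. Polr3e and Bdp1 had 0.58 (SE 0.10) and 0.33 (SE 0.060). Polr3gl, an alternative form of 1 subunit, had the most negative value, -0.38 (SE 0.15), and was not called, and the gene called lower was Gtf3c1 with -0.11 (SE 0.027). Of 9 host genes of small nucleolar RNAs, only Snhg5 and Gas5 were measured, with 0.65 (SE 0.27) and 0.27 (SE 0.12), neither of them called.

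**Figure D4:**
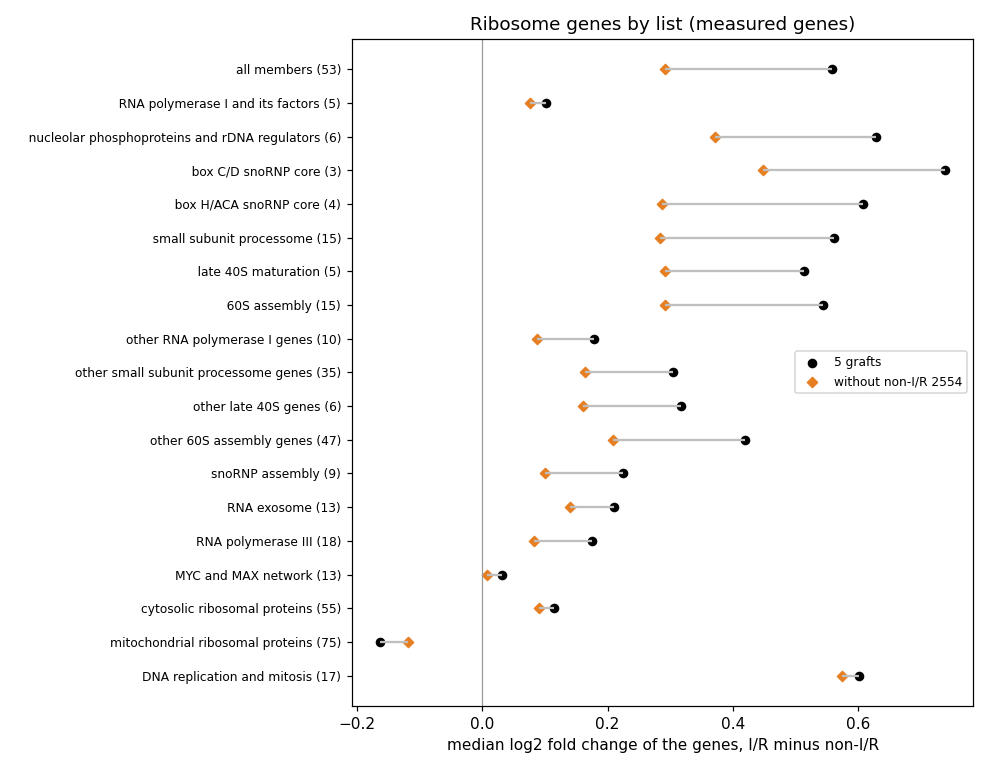
Median log2 fold change (I/R minus non-I/R) of each list of measured genes, whose number is in brackets, with all 5 grafts (black) and without non-I/R graft 2554 (orange). The 53 genes lie at 0.56, the other assembly lists between 0.18 and 0.42, cytosolic ribosomal proteins at 0.12 and mitochondrial ribosomal proteins at -0.16.

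The proteins of the finished ribosome did not show differences of this size. Of 55 cytosolic ribosomal protein genes measured of 79 listed, 43 had a higher mean in I/R, the median was 0.12, and 3 were called (5.45%, below the 7.64% of all probe sets), Rpl12 (0.78), Rpl26 (0.33) and Rpl30 (0.33). The median was 0.05 without 2555 and 0.06 without 2557. Many of these genes have near-identical processed copies, so their signals are uncertain. Mitochondrial ribosomal proteins differed in the other direction, with higher means in only 10 of 75 genes, a median of -0.16, and 12 called lower and none higher. Every I/R graft was below both non-I/R grafts in 30 of the 75. Graft 2555 had the lowest signals, with a mean deviation of -0.26 against 0.04 and -0.01 in I/R 2553 and 2557, and the median was -0.10 without 2555. The most negative of the called mitochondrial genes was Mrpl42 with -0.87 (SE 0.22).

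Other cell types and processes also differed between these grafts. Deviations are given as the mean over a list of each gene's log2 signal minus its mean over the 5 grafts. For the 53 genes they were -0.54 and -0.08 in non-I/R 2554 and 2556 and 0.10, 0.13 and 0.39 in I/R 2553, 2555 and 2557. All 11 ventricular cardiomyocyte markers had lower means in I/R, 10 of them called, and their deviations were 0.45 and 0.30 in non-I/R and -0.29, -0.39 and -0.07 in I/R. Their mean log2 signal of 12.2 to 12.6 in I/R and 12.9 to 13.1 in non-I/R shows heart muscle RNA in every graft, as the tissue label says. Fewer cells of a type and less RNA for each cell cannot be told apart in RNA from graft tissue.

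Neutrophil markers were higher in I/R for 8 of 9 genes, with 5 called higher and 1, Lcn2, lower. Their deviations were -0.64 and -0.36 in non-I/R and 0.02, 0.71 and 0.27 in I/R, highest in 2555, whereas the ribosome genes were highest in 2557. The mean log2 signal of the 9 markers ran from 9.44 to 9.72 in non-I/R and from 10.1 to 10.8 in I/R. Genes of DNA replication and mitosis had a median of 0.60 over 17 genes, with 6 called, and were highest in 2553, at a deviation of 0.73. Their median was 0.25 without 2553 and 0.575 without 2554. The graft that was highest thus differed between these lists.

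Atrial markers set 2554 apart from 2556. Their deviations were 1.41 and -1.28 in non-I/R 2554 and 2556 and -0.82, 0.71 and -0.02 in I/R 2553, 2555 and 2557. The atrial light chain Myl7 had 10.67 and 5.52 in non-I/R and 6.72, 11.08 and 8.56 in I/R. Grafts 2554 and 2555, on opposite sides of the comparison, were thus the high ones. Without both of them, which leaves 1 non-I/R and 2 I/R grafts, the median of the 53 genes was 0.34. The atrial markers themselves had a median of 0.50 in that fit, so it does not set their difference aside.

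Macrophage and monocyte markers had mean deviations between -0.28 and 0.22 that overlapped between the groups, with 1 of 9 called. In 2 of the 9 (22.2%, against 15.8% of all probe sets) every I/R graft lay above both non-I/R grafts. Endothelial, fibroblast, smooth muscle, lymphocyte and erythroid markers had medians of 0.12, -0.20, 0.29, -0.08 and 0.05, with none called higher except 1 lymphocyte gene, and 1 fibroblast and 1 lymphocyte gene called lower. The part of cardiomyocyte, neutrophil and atrial content in the differences of the ribosome genes was not tested.

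**Figure D5:**
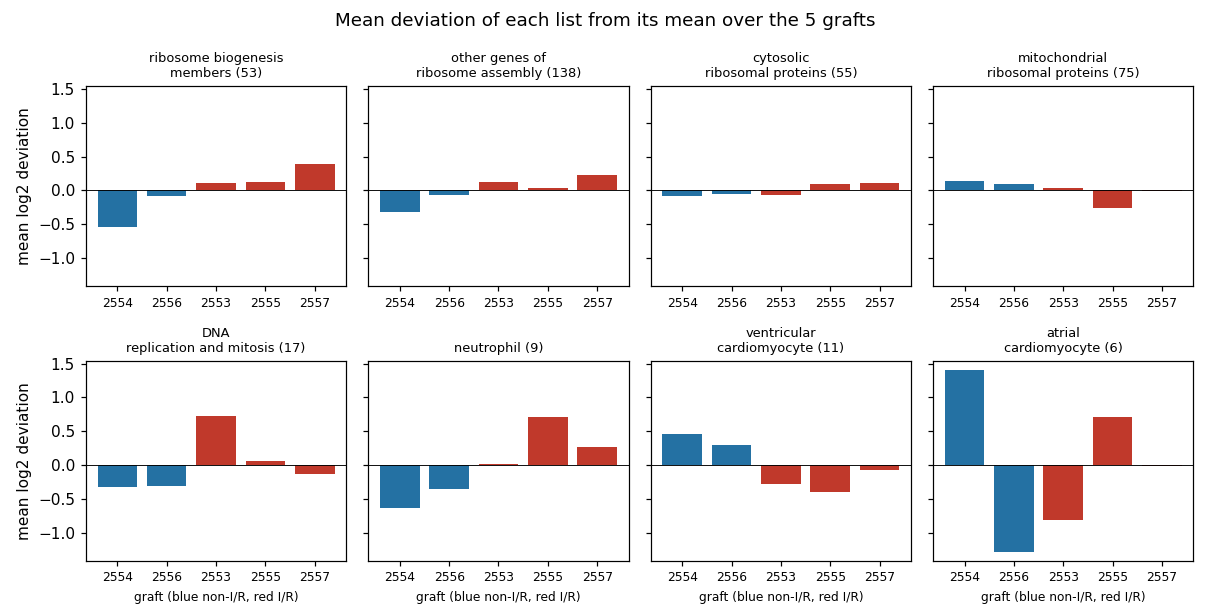
Mean deviation of each list from its mean over the 5 grafts (log2), for the ribosome biogenesis genes, the other genes of ribosome assembly, ribosomal proteins, DNA replication and 3 sets of cell type markers; blue bars are non-I/R grafts and red bars I/R grafts, and the number of genes is in brackets. Ribosome biogenesis genes are lowest in 2554 and highest in 2557, neutrophil markers are highest in 2555, and atrial markers are high in 2554 and 2555.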

How the data were processed

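Gene expression in 5 heart grafts was analysed from 1 table of 35556 probe sets that the authors deposited as log2 values. Partek and RMA are credited in the submitters' notes on processing, with versions and genome build not given in the sources used here. RMA corrects background, sets arrays to a common distribution and summarises each probe set, so a shift common to most genes may be lost. Array medians lay between 6.58 and 6.65, and the number of arrays limits the precision. Gene symbols came from the platform's annotation, and 21789 probe sets had a single one.

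Groups came from the labels, which name no batch or pairing. Differences were fitted with limma 3.58.1 (lmFit, eBayes) in R 4.3.3 on the values as deposited, with Benjamini-Hochberg adjustment over all probe sets tested. The brightest probe set of each gene was used, for 4 genes with several. For Fbl, Ddx18 and Wdr12 that probe set may read a related copy of the gene. Values were tied between grafts in 7 of the 53 genes and in 53.8% of all probe sets. Every gene is counted in its step; values in each graft are given for the 3 genes of each step with the smallest p, those with lower means in I/R, and Ncl, Npm1, Fbl and Ubtf. The list, the steps and the other lists were chosen with earlier results of these data known. In the other lists, the 2 genes with the smallest p and the lowest are named, and other genes were added where needed to describe a list. The fits were run on simulated data with independent values, no ties and larger differences than those of the 53 genes. That check therefore does not cover ties, shared graft patterns or small differences. Promoter windows came from RefSeq, and figures were drawn with matplotlib 3.10.9. Protein sequences were not analysed here. Alternatives were the methods' t-test, other eBayes settings, array weights, other normalizations, filters, other probe set rules and leaving out grafts.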

Additional observations from a re-analysis of the deposited data

How the results depend on the processing

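No paired analysis was possible because the labels give no number, animal or batch that links grafts of the 2 groups. With all grafts and limma, 24 of the 53 genes and 46 of the 138 other assembly genes were called higher, the median log2 fold change was 0.558, and 42 genes had separate groups. By the methods' t-test on the same values, 6 and 27 were called. Leaving out 1 graft at a time gave 2 to 39 called genes, 12 to 67 called other genes and a median from 0.292 to 0.761, the lowest counts and median without 2554 and the highest without 2556. Genes with separate groups numbered 42 to 49, a count that cannot fall when a graft is left out. In particular, called genes numbered 8 without 2553, 6 without 2555 and 6 without 2557, and called other genes 30, 30 and 22. Without 2554 and 2555 together, 2 genes and 17 other genes were called. A fit that leaves out a non-I/R graft assumes that the lone control varies like the I/R grafts. Except for the fit without 2554 alone, the share of all probe sets called is not given for fits with fewer grafts.

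Trend and robust eBayes, array weights, median centring, quantile and cyclic loess normalization, inclusion of unnamed probe sets, removal of dim ones, a table reduced to 1 probe set for each gene, and gene means gave 23 to 34 called genes, medians from 0.526 to 0.623 and 39 to 43 genes with separate groups. Among probe sets without tied values, which hold 46 of the 53 genes, 36 genes were called and 41 had separate groups. The share of all probe sets called is not given for these alternative fits, so their counts cannot be read against it. The sign of 2 genes turned among the genes described by graft. Polr1e was 0.045 with array weights, 0.071 without 2555 and 0.044 without 2556, and Nop10 was 0.027 without 2555 and 0.023 without 2554 and 2555. The cause was not tested for any of these changes.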
